A study of Mus musculus with 10 samples.

Results

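Genes of cell division and DNA replication were followed in whole lungs of arsenic-exposed and control mice. The set was a list of 42 symbols, from the proliferation marker Mki67 to the ubiquitin-conjugating enzyme Ube2c. A gene was measured if a probe set of the array carried its symbol and no other in the platform annotation, and it was read at its probe set with the highest mean over all arrays. This gave 41 of the 42 genes, of 18193 genes with a symbol of their own on the array. The expression of the mitotic cyclin Ccnb1 was not analysed here. The array was the Affymetrix Mouse430_2 oligonucleotide array, and values are on the log2 scale. The 5 exposed animals were female C57BL/6 mice that drank water with 50 ppm arsenic for 12 weeks, beginning at 8 weeks of age. The 5 control animals, also adult C57BL/6 females, drank distilled deionized water with no arsenic over the same weeks, and the stated age at the start was taken to hold for both groups. The series names the compound arsenate and the sample protocols name arsenite, so the group is called arsenic. Each array carries an animal number of its own. The titles also hold a number that is the same throughout a group, so whatever it marks and the exposure cannot be told apart.

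Most cells of an adult lung rest outside the cell cycle. A cell that enters it first loads the MCM helicase onto replication origins with the help of Cdc6 and Cdt1, then copies its DNA with the sliding clamp PCNA and with nucleotides made by ribonucleotide reductase and thymidylate synthase. Later it builds mitotic cyclins, kinases, kinesins and kinetochore proteins, which are destroyed or released as the cell divides. Transcription of the early genes is driven by E2F factors, and that of the late genes by the B-MYB and FOXM1 complexes, while the DREAM complex holds both sets down in resting cells.

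The promoters of the genes were described first. The table of promoters from RefSeq on GRCm38.p6 held 39 windows of 36 of the 42 genes, each running from 250 bases before the transcription start to 50 after it. Short motifs were searched on both strands: the cell cycle homology region CHR as TTTGAA or TTTAAA, the box CCAAT bound by NF-Y, and the E2F motif as any of TTCCCGC or TTGGCGC or TTCGCGC or TTGCCGC. A reversed CCAAT box can share bases with the TTGGCGC form of the E2F motif. The genes were split by textbook function into 24 measured division genes and 17 measured replication genes, among which the E-type cyclins, E2f1 and Uhrf1 were counted. The windows belonged to 21 division genes, the unmeasured Ccnb1 among them, and to 15 replication genes. Prc1, Mcm7 and Uhrf1 had more than a single window each, those of Prc1 overlapping, and shares are per window. A CHR was found in 19 of 22 windows of division genes (86.4%) and in 6 of 17 windows of replication genes (35.3%), against 27.6% of all 32851 windows. The E2F motif was found in 4 of 22 division windows (18.2%) and in 11 of 17 replication windows (64.7%), against 9.57% of all windows. CCAAT was in 81.8% of division windows and 64.7% of replication windows, against 37.4% of all. A match of letters is a description and not a binding site.

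Promoters of 4 division genes that had their highest value in arsenic animal 3 are printed, as a choice among such genes. With them are that of Rrm2, a replication gene also highest there, and that of Mcm6, of the helicase. Capitals mark the motifs. The windows are chr2:164769679-164769978 (plus strand) for Ube2c, chr10:69352863-69353162 (minus strand) for Cdk1, chr11:99024140-99024439 (minus strand) for Top2a, chr9:70421505-70421804 (minus strand) for Ccnb2, chr12:24708004-24708303 (plus strand) for Rrm2 and chr1:128359656-128359955 (minus strand) for Mcm6, each read 5′ to 3′ on its gene's strand.
Ube2c: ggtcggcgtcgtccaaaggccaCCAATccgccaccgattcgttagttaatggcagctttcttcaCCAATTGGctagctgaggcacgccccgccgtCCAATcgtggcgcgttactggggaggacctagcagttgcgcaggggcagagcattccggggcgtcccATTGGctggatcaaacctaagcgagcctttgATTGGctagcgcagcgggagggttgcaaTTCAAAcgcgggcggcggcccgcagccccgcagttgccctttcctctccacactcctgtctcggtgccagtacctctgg
Cdk1: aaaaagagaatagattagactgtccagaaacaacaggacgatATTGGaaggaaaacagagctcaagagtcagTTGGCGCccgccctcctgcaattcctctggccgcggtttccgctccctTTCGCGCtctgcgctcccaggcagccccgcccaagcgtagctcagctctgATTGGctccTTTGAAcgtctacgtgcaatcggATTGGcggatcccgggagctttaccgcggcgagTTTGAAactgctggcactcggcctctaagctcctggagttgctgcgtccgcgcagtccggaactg
Top2a: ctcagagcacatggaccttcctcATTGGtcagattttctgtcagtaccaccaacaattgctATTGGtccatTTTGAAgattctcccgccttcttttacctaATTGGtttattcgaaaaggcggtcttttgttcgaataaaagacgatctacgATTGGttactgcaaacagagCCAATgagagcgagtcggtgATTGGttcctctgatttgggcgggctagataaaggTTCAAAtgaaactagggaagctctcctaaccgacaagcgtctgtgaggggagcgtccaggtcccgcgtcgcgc
Ccnb2: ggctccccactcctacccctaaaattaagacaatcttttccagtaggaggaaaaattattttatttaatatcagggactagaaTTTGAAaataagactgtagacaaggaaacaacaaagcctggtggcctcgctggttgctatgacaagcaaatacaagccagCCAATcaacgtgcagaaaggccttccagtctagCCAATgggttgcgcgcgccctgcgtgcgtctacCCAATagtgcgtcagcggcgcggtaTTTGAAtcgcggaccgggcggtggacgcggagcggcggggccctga
Rrm2: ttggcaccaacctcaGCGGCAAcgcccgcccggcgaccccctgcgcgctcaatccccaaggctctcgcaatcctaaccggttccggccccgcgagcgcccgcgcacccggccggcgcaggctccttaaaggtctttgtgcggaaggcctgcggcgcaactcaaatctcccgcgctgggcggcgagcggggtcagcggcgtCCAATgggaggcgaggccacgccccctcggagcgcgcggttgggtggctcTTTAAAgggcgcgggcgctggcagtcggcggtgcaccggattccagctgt
Mcm6: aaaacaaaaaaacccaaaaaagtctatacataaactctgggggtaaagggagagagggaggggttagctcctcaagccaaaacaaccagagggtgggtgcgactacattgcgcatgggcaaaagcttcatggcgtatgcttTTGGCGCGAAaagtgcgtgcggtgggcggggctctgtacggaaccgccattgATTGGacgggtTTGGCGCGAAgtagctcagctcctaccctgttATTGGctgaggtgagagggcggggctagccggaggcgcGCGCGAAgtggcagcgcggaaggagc
The 4 division promoters hold CCAAT boxes and at least 1 CHR each, and that of Cdk1 holds E2F motifs as well. That of Mcm6 holds overlapping E2F motifs and CCAAT boxes but no CHR. That of Rrm2 holds a CCAAT box, a CHR and an E2F motif. Not every such gene had both a CCAAT box and a CHR. The window of Birc5, also highest in arsenic animal 3 and not printed, holds a CHR but no CCAAT box. That of Mad2l1, counted as highest there too, holds none of the motifs. Both a CHR and a CCAAT box were in 17 of 22 division windows (77.3%), against 10.7% of all windows. Plk1, Cenpe, Cenpf and Prc1, which were highest in control animals, also hold both. The pair is thus not particular to genes highest in arsenic animal 3.

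All 10 arrays had medians between 4.11 and 4.26 and correlated with each other at 0.99 to 0.997 over probe sets. A probe set was kept for testing if its value was over 4.20 on 5 or more arrays, 4.20 being the median of all deposited values. The tissue markers were at the top of the scale, with Sftpc, a surfactant gene, at a mean of 16.1 and the club-cell gene Scgb1a1 at 16.3. Defining genes of cell types that divide in other organs were low on average: Rag1 and Dntt of thymocytes were at 2.33 and 2.56, Elane and Mpo of neutrophil precursors at 2.26 and 2.28, and Klf1 of erythroid precursors at 1.91. Other genes of the same lists were well above the filter, such as Alas2 (11.2) and Tal1 (7.99) of the erythroid list, Lcn2 (13.5) and Ltf (10.5) of the neutrophil list and Cd1d1 (8.77) and Cd8b1 (5.36) of the thymocyte list.

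No gene of cell division or DNA replication passed the comparison of arsenic with control lungs. Of the 41 measured genes 21 passed the filter, 9 of division and 12 of replication, and 0 of the 21 passed an adjusted p of 0.05 with limma and Benjamini-Hochberg adjustment, where 54 of all 11332 genes tested did (0.477%). At an unadjusted p of 0.05 the count was 1 of the 21, against 15.7% of all genes. Adjusted p-values of the 21 ran between 0.292 and 0.954, and their median log2 difference was -0.03, against 0.057 over all genes. By sign, 9 of the 21 were positive, as were 63.2% of all genes. The absence of a call was not evenly informative. For 20 of the 21 genes the 95% interval of the log2 difference lay within 1 of zero, that is within a 2-fold change, and for 14 within 0.5. The exception at the wider bound was Top2a. The other 20 measured genes, among them Mki67, Plk1, Bub1 and the E-type cyclins, did not pass the filter and were not tested. Of these 20, 14 were below the filter value on all 10 arrays.

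**Figure D1:**
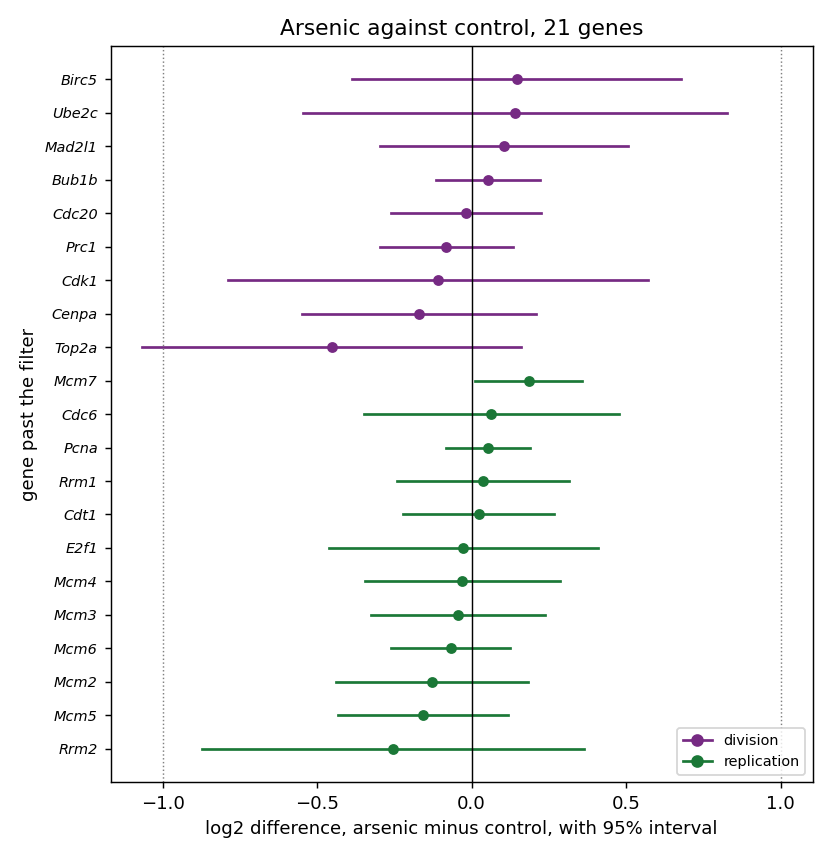
Log2 difference, arsenic minus control, of the 21 genes past the filter, with its 95% interval from limma (5 arrays a group); dotted lines mark 2-fold changes. Every interval but that of Mcm7 covers 0, and only that of Top2a reaches past a dotted line.

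Several division genes differed widely between animals of the same group. The ubiquitin-conjugating enzyme Ube2c, which serves the anaphase-promoting complex, was at 6.50, 5.69, 7.58, 6.18 and 6.63 in arsenic animals 1 to 5, and at 6.54, 5.71, 6.43, 6.66 and 6.54 in control animals 1 to 5. Arsenic animal 3 was high, and arsenic animal 2 and control animal 2 were low, with the groups overlapping throughout. The group means were 6.52 ± 0.70 with arsenic and 6.38 ± 0.38 in controls (SD, n = 5 each), a log2 difference of 0.14 (limma adjusted p = 0.84). The difference was -0.13 without arsenic animal 3 and 0.35 without arsenic animal 2.

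The same animals stood out in the kinase that drives mitosis, Cdk1, at 4.56, 3.62, 5.45, 4.01 and 4.52 in arsenic lungs and at 4.98, 3.92, 4.64, 4.57 and 4.59 in control lungs. The highest and the lowest value were both in the arsenic group. Its log2 difference was -0.11 (95% interval -0.79 to 0.57, limma adjusted p = 0.88), -0.36 without arsenic animal 3 and 0.095 without arsenic animal 2. Birc5, survivin of the chromosomal passenger complex, was at 5.11, 4.68, 5.87, 4.84 and 5.42 with arsenic and at 5.16, 4.38, 5.14, 5.14 and 5.38 in controls. Again arsenic animal 3 was highest, and control animal 2 was lowest.

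Cyclin Ccnb2, the partner of Cdk1, did not pass the filter, being above it in 3 arsenic and 1 control lungs. It had its highest value, 5.34, in arsenic animal 3 and its lowest, 3.39, in control animal 2. Cyclin Ccna2 had its extremes in the same animals, at 3.49 and 2.86. The passenger kinase Aurkb was at 5.05 in arsenic animal 3 and between 3.89 and 4.20 in the other 9 lungs, so that 1 lung alone carried a signal well above the filter. The centrosomal kinase Aurka was at 4.27 in arsenic animal 3 and between 2.96 and 3.86 elsewhere. Plk1, a kinase of mitotic entry, stayed between 2.69 and 3.14 on every array.

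**Figure D2:**
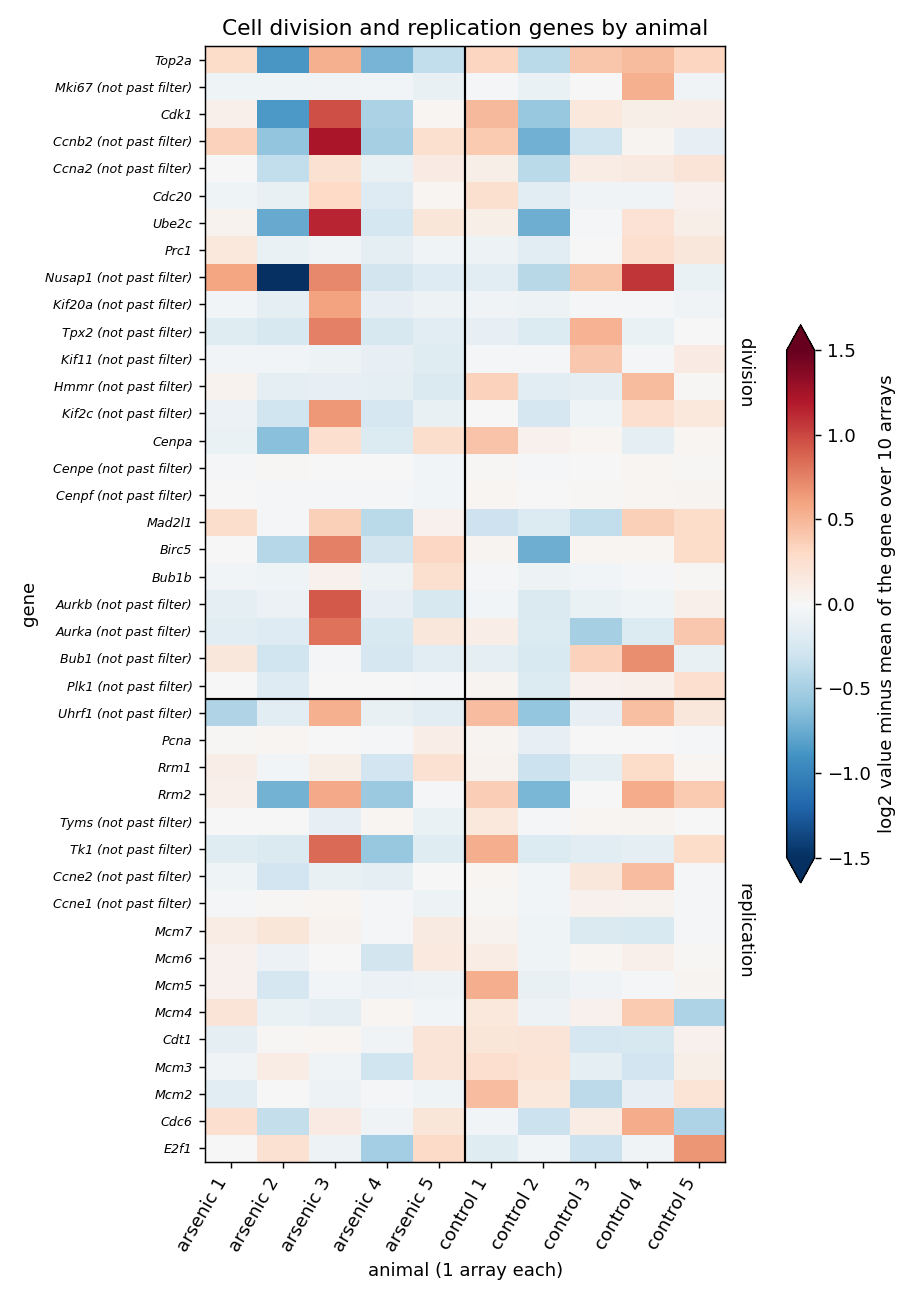
Deviation of each of 41 genes (rows) from its own mean over 10 arrays, in arsenic animals 1 to 5 (left) and control animals 1 to 5 (right), with division genes above replication genes; the colour scale ends at 1.5 log2 units. Arsenic animal 3 is red and arsenic animal 2 and control animal 2 are blue across Cdk1, Ccnb2, Ube2c, Birc5 and Rrm2, while most MCM rows are pale.

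Top2a, the topoisomerase that untangles sister chromatids, had the largest group difference of the 21 genes in size. Its values were 4.81, 3.66, 5.07, 3.84 and 4.16 in arsenic lungs and 4.85, 4.12, 4.95, 5.01 and 4.86 in control lungs. Arsenic animals 2, 4 and 5 and control animal 2 were low, and the groups overlapped. The log2 difference was -0.45 (SE 0.28, 95% interval -1.07 to 0.16, limma adjusted p = 0.436), and it was -0.64 without arsenic animal 3 and -0.29 without arsenic animal 2. Only 2 arsenic and 4 control values exceeded the filter value, so this difference was read close to the filter value. The marker Mki67, a protein of the surface of mitotic chromosomes, was between 2.39 and 2.46 in arsenic lungs. In control lungs it was between 2.40 and 2.50 but for control animal 4, at 3.03.

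Cdc20, which activates the anaphase-promoting complex, was at 8.72, 8.67, 9.09, 8.59 and 8.82 with arsenic and at 9.03, 8.62, 8.74, 8.74 and 8.85 in controls. Its range of 0.502 was narrow, but arsenic animal 3 again had the highest value, in both of its probe sets past the filter. Its log2 difference was -0.02 (95% interval -0.26 to 0.22, limma adjusted p = 0.945). The checkpoint protein gene Mad2l1, which holds back anaphase until chromosomes are attached, was at 7.50, 7.21, 7.59, 6.83 and 7.30 with arsenic and at 6.92, 7.03, 6.87, 7.59 and 7.51 in controls. Here arsenic animal 3 shared the top with control animal 4, and the log2 difference was 0.10 (limma adjusted p = 0.789). The checkpoint kinase gene Bub1b ranged over no more than 0.316 and had its highest value, 4.61, in arsenic animal 5.

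At the centromere and spindle, Cenpa, the histone variant that marks centromeres, was at 5.61, 5.09, 5.97, 5.51 and 5.98 in arsenic lungs and at 6.15, 5.78, 5.74, 5.59 and 5.75 in control lungs. Arsenic animal 2 was lowest, and the log2 difference was -0.17 (limma adjusted p = 0.633). The kinetochore genes Cenpe and Cenpf did not pass the filter and ranged over 0.0768 and 0.0877. Of 7 kinesin and spindle genes 1, the midzone protein gene Prc1, passed the filter; it had its highest value, 4.51, in control animal 4 (log2 difference -0.08, limma adjusted p = 0.684). Among those that did not pass, Kif20a (4.08), Kif2c (3.74) and Tpx2 (3.92) were highest in arsenic animal 3, as Hmmr (3.62) and Nusap1 (4.92) were in control animal 4. Nusap1 had the widest range of all measured genes, reaching down to 2.21 in arsenic animal 2. Kif11 was the 1 measured gene whose groups did not overlap, at 2.97 to 3.12 with arsenic and 3.14 to 3.56 in controls, with every value below the filter. All 21 genes past the filter had overlapping groups, where 3.63% of all genes tested did not overlap. The share among genes below the filter was not computed.

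Small negative differences were common among the genes below the filter. Of the 20, 16 had a lower mean with arsenic, with a median difference of -0.07. The same held for 84% of all 6861 genes that did not pass, whose median difference was -0.02. Nothing was read from the signs of these 16.

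Among the genes of DNA replication, the helicase gene Mcm7, the 1 gene of the 21 with an unadjusted p under 0.05, was at 10.45, 10.52, 10.39, 10.33 and 10.48 with arsenic and at 10.40, 10.28, 10.13, 10.12 and 10.32 in controls. All arsenic values lay above the 4 lower control values but 1 control value lay among them. The log2 difference was 0.18 (SE 0.08, 95% interval 0.01 to 0.36), or 1.14-fold, with a limma adjusted p of 0.292. All 4 probe sets of Mcm7 past the filter had a positive difference, between 0.12 and 0.29. With the kidney transcript level of each lung as a covariate the adjusted p was 0.0992, at a difference of 0.29. This was the lowest of an adjusted p that ran from 0.0992 to 0.564 over the alternatives. The kidney level went partly with the exposure. Of 11 tested kidney genes 10 had a positive difference, as did 63.2% of all genes, with a median of 0.71 and 0 called higher. The covariate and the exposure are therefore not separate.

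None of the other 5 helicase subunits passed, and no shared direction is read from them, since with the kidney covariate or with median-centred arrays the signs of Mcm2, Mcm3, Mcm4 or Mcm6 turned. Mcm2 was at 7.19, 7.35, 7.28, 7.33 and 7.29 in arsenic lungs, and at 7.82, 7.52, 6.96, 7.23 and 7.56 in control lungs. The control values spread on both sides of the arsenic values, and the log2 difference was -0.13 (limma adjusted p = 0.661). Mcm5 was at 9.05, 8.73, 8.95, 8.90 and 8.91 with arsenic and at 9.54, 8.88, 8.93, 8.96 and 9.02 in controls, with control animal 1 apart from the rest. Its log2 difference of -0.16 (limma adjusted p = 0.54) was -0.04 without control animal 1. Mcm6 was at 9.94, 9.79, 9.87, 9.60 and 10.03 with arsenic and at 9.99, 9.81, 9.91, 9.95 and 9.90 in controls, which differed by -0.07 (limma adjusted p = 0.704). At another probe set Mcm6 had 0.02. Mcm3 and Mcm4 had log2 differences of -0.04 and -0.03 (limma adjusted p = 0.884 and 0.928), and the 4 probe sets of Mcm3 past the filter ran from -0.30 to 0.06.

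Of the licensing factors that load the helicase, Cdt1 had a log2 difference of 0.02 and Cdc6 of 0.06, both with ranges that overlapped. Control animal 1 had the highest value of Mcm2, Mcm3 and Mcm5. At the further probe sets of Mcm3 past the filter, control animal 2, control animal 5 and arsenic animal 5 were highest instead. Control animal 2 was at 7.52 in Mcm2, 8.06 in Mcm3 and 8.88 in Mcm5. The summed log2 level of 10 B-cell markers was 70.7 in control animal 1 and 70.6 in control animal 2, but 61.7 to 66.7 in the arsenic lungs and 63.2 to 63.5 in the other 3 control lungs. Pax5 was the lowest marker of this list, at 2.17. The part of B cells in these values was not tested. In whole lungs, fewer cells of a type and less RNA per cell cannot be told apart.

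**Figure D3:**
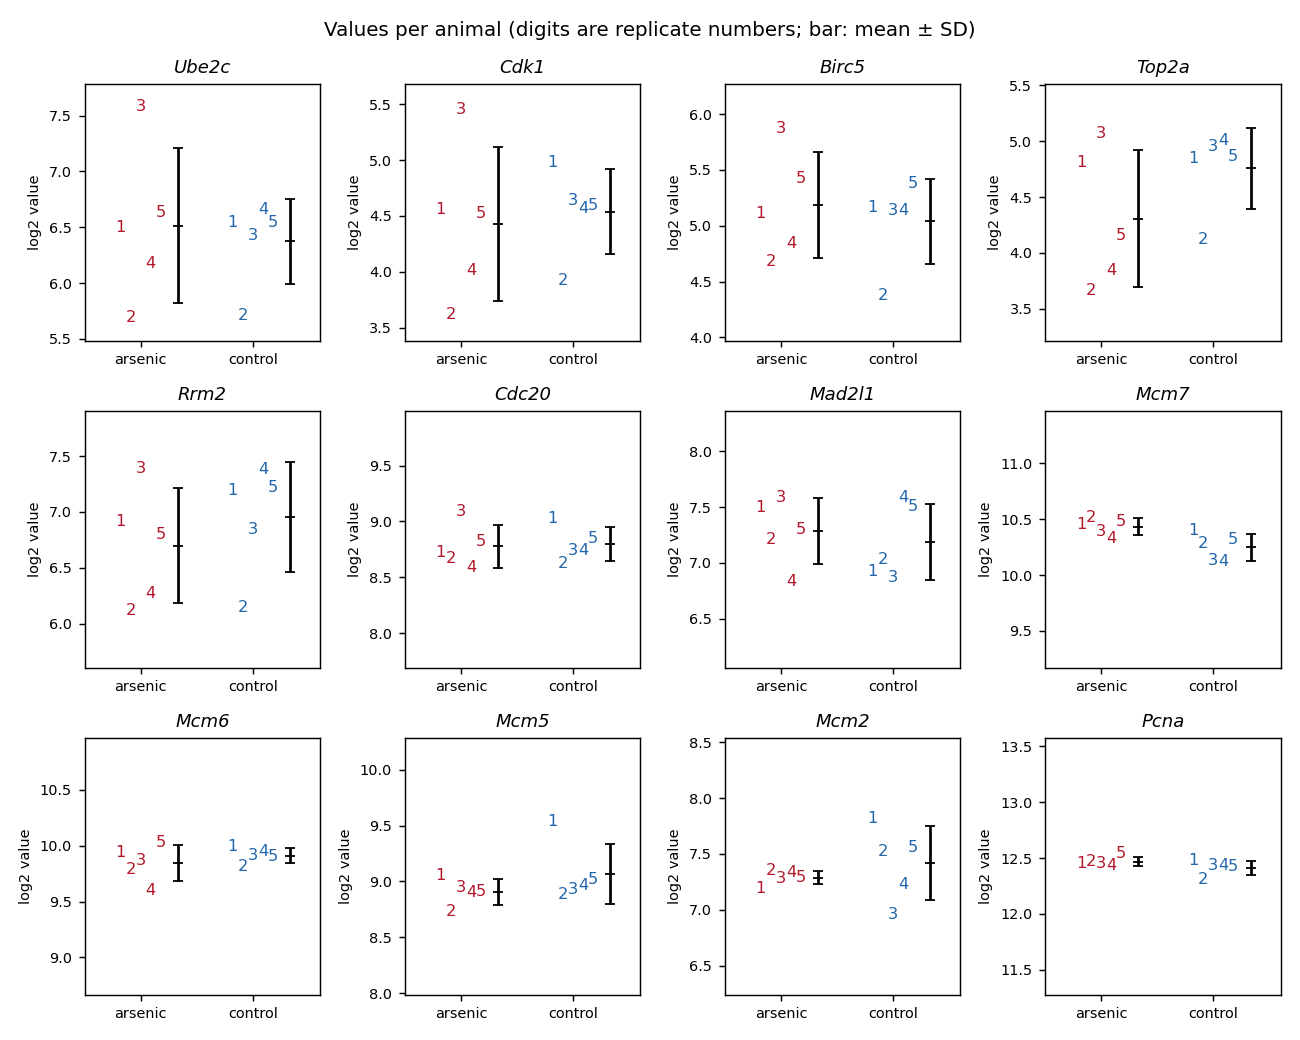
Log2 values of 12 genes in arsenic (left, red) and control lungs (right, blue); each digit is the animal with that replicate number, the bar is the mean ± SD (n = 5), and every panel spans 2.3 log2 units. Digit 3 of the arsenic group is at the top of Ube2c, Cdk1, Birc5, Top2a, Rrm2 and Cdc20, and the values of Mcm7, Mcm6 and Pcna lie close together.

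Pcna, the sliding clamp, had the smallest range of the 21 genes. It was at 12.45, 12.47, 12.45, 12.43 and 12.54 with arsenic and at 12.48, 12.31, 12.43, 12.43 and 12.42 in controls, with a log2 difference of 0.05 (95% interval -0.08 to 0.19, limma adjusted p = 0.67). The 2 subunits of ribonucleotide reductase, which makes deoxynucleotides, differed in spread. The large subunit Rrm1, at a mean of 8.69, had a within-group SD of 0.21 and a log2 difference of 0.04 (limma adjusted p = 0.902). The small subunit Rrm2, which is made anew in each cycle and had a mean of 6.83, had a within-group SD of 0.505. It was at 6.91, 6.12, 7.39, 6.27 and 6.80 in arsenic lungs and at 7.19, 6.14, 6.84, 7.38 and 7.22 in control lungs. Arsenic animals 2 and 4 and control animal 2 were low, as in Ube2c. Its log2 difference was -0.26 (limma adjusted p = 0.658), but 0.05 in a second probe set, in which arsenic animal 3 was also highest. Thymidine kinase Tk1 and thymidylate synthase Tyms did not pass the filter; Tk1 was at 3.78 in arsenic animal 3 and 3.47 in control animal 1, and at most 3.20 elsewhere. The transcription factor E2f1 was at 5.20, 5.41, 5.11, 4.68 and 5.47 with arsenic and at 5.00, 5.14, 4.87, 5.13 and 5.85 in controls (log2 difference -0.03, limma adjusted p = 0.954). Uhrf1, which carries DNA methylation through replication, did not pass, with its highest value, 4.76, in arsenic animal 3 and its lowest, 3.65, in control animal 2.

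Across animals the extremes fell on few arrays. Of the 41 measured genes, 16 had their highest value in arsenic animal 3, 13 of these among the 24 division genes. Of all 18193 measured genes 8.59% were highest in that animal. Among genes past the filter it held the highest value of 7 of 21, 6 of them among the 9 division genes, against 9.7% of all genes tested. This count includes near-ties with control animal 4 in Mad2l1 (7.59 in both), Rrm2 (7.39 against 7.38) and Top2a (5.07 against 5.01). Control animal 4 held 10 highest values and arsenic animals 1 and 4 and control animal 2 held 0. The lowest value fell in arsenic animal 2 for 12 genes, in control animal 2 for 8 and in arsenic animals 4 and 5 for 7 each. Of the 21 genes past the filter, control animal 4 held 4 highest values and arsenic animal 2 held 1. Their lowest value fell in arsenic animals 2 and 4 for 6 each, control animal 2 for 4 and arsenic animal 5 for 0. Over all genes tested 13.5% were highest in control animal 4 and 23.4%, the largest share, in arsenic animal 2. Lowest were 12.7% in arsenic animal 2, 8.71% in arsenic animal 4, 9.94% in arsenic animal 5 and 6.32% in control animal 2. Within each group of 5, Dixon's criterion set a high value of arsenic animal 3 apart for 5 of the 41 genes, against 1.56% of all measured genes. None of these 5 passed the filter, so the count past it was 0 of 21, against 0.724% of all genes tested. In either direction and for any animal, values stood apart in 7 arsenic and 8 control groups of the 41 genes, against 9.77% of arsenic and 8.81% of control groups over all measured genes. Past the filter these were 0 arsenic and 5 control groups of 21, against 5.92% and 6.05% over all genes tested. Averaged over the 9 division genes past the filter, arsenic animal 3 lay 0.48 above the genes' means. Arsenic animals 2 and 4 and control animal 2 were lower than the means, at -0.43, -0.30 and -0.33. For the 12 replication genes past the filter the animals lay between -0.18 and 0.17.

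**Figure D4:**
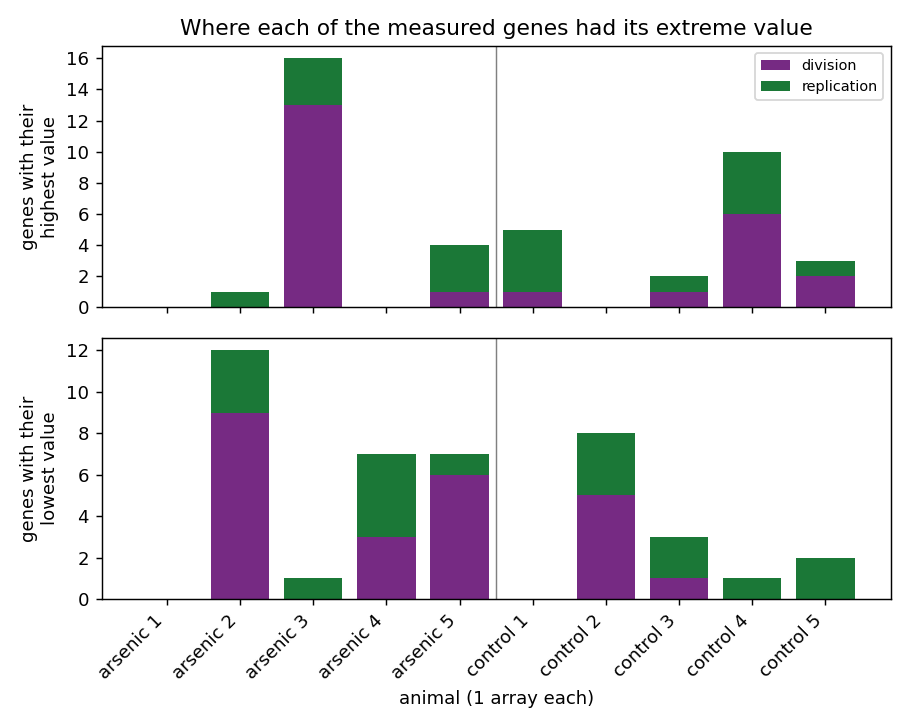
Number of the 41 measured genes with their highest (above) or lowest value (below) on each array, arsenic animals left of the line and controls right of it, split into division and replication genes. Arsenic animal 3 holds 16 highest values, and arsenic animal 2 and control animal 2 hold 12 and 8 lowest values.

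The spread within groups was set beside that of all genes, with no test. The split into division and replication genes was made after the values were seen. The median within-group SD was 0.318 over the division genes past the filter and 0.211 over the replication genes, against 0.19 over all genes tested. Above this last value were 6 of the 9 division genes and 8 of the 12 replication genes, an equal share of each. Of the 9 division genes 4 exceeded 0.398, the upper decile of all genes, as did 1 of the 12 replication genes, Rrm2. These 4 were Ube2c (0.563), Cdk1 (0.557), Top2a (0.501) and Birc5 (0.432). Their means were 6.45, 4.49, 4.53 and 5.11, lower than those of many replication genes, such as Pcna (12.4) and Mcm7 (10.3). Bub1b and Prc1 had low means as well, 4.37 and 4.25, with SDs of 0.097 and 0.147. Spread was not compared at like signal levels, and the part of signal level in it was not tested.

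How closely other genes followed Ube2c was measured over the 10 animals for the 20 other genes past the filter. Ube2c was chosen after its values were seen. Pearson's r was 0.946 with Birc5 (permutation p = 0.00019, adjusted p = 0.0019 over 20 relations, Spearman's rho 0.842 with permutation p = 0.00393) and 0.933 with Cdk1 (permutation p = 0.00046, adjusted p = 0.00307, rho 0.697 with permutation p = 0.0309). It was 0.848 with Rrm2 (permutation p = 0.00014, adjusted p = 0.0019, rho 0.879 with permutation p = 0.00164). It was 0.79 with Cdc20 (permutation p = 0.00578, adjusted p = 0.0289, rho 0.758 with permutation p = 0.0153) and 0.729 with Top2a (permutation p = 0.00776, adjusted p = 0.031, rho 0.794 with permutation p = 0.00931). These 5, which were 4 of 8 division genes and 1 of 12 replication genes, passed an adjusted p of 0.05. Of all 11331 other genes tested 85 (0.75%) had an r of at least 0.729, that of Top2a. By rank the adjusted p passed for Birc5 (0.0262), Rrm2 (0.0164), Top2a (0.042), Bub1b (0.0164) and Rrm1 (0.042), which are 3 division and 2 replication genes, and did not for Cdk1 (0.0774) and Cdc20 (0.051).

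Arsenic animals 2 and 3 lay farthest from the median of Ube2c. Without them r over the remaining 8 animals was 0.938 with Birc5, 0.869 with Rrm2, 0.813 with Cdk1, 0.609 with Cdc20 and 0.604 with Top2a. Control animal 2 was kept among these 8, though its Ube2c value of 5.71 was nearly as low as the 5.69 of arsenic animal 2. Dixon's criterion set it apart as low in Ube2c, Birc5 and Top2a, so these r values still include an extreme lung. Over these 8 animals r was also 0.874 with Rrm1, 0.815 with Pcna, 0.656 with Prc1 and 0.629 with Mcm6, none of which passed over 10 animals by Pearson's r. In all 5 of 8 division genes and 4 of 12 replication genes reached an r of 0.6 there, as did 3.86% of all other genes tested. Over all 10 animals r was -0.07 with Mcm7, -0.15 with Mcm2, -0.22 with Mcm3, 0.01 with Mcm4 and 0.40 with Mcm6 (adjusted p from 0.435 to 0.997). Within 1 group, 5 animals are too few for such a relation to be given. The points pool both groups and come from 1 array each. The values of all genes on an array share its hybridisation.

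Markers of other cells were set beside arsenic animal 3. Its summed log2 level of 8 neutrophil precursor markers was 40.0. The other arsenic lungs ran from 33.0 to 37.9 and control lungs from 34.2 to 39.9. Only 2 of the 8, Lcn2 and Ltf, passed the filter, and they made up most of this sum. Elane, Mpo, Camp and Prtn3 had means of 2.26, 2.28, 2.00 and 2.05, so the sum mainly reads Lcn2 and Ltf. For 9 T-cell markers the sum was 43.4 in arsenic animal 3, where arsenic lungs ran from 42.2 to 44.5 and control lungs from 40.9 to 45.3. For 9 alveolar macrophage markers it was 92.2, where arsenic lungs ran from 91.5 to 95.9 and controls from 90.0 to 94.1. Sums of 9 thymocyte and 9 erythroid precursor markers were 33.5 and 46.3, within the ranges of the other lungs of both groups together. The sum of 7 germinal centre and plasma cell markers was 58.3, and that of 7 NK-cell markers 29.2, both within the ranges of the other lungs. The kidney transcripts, 25 measured, summed to 124.2 in arsenic animal 3, 145.1 in arsenic animal 4 and 99.8 to 127.8 in controls. The part of these cells in the pattern was not tested.

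Of 109 further cell-cycle genes on a list chosen with earlier results of these data known, 55 passed the filter, and 0 rose or fell with limma. At an unadjusted p under 0.05, 6 were higher (10.6% of all genes were) and 1 was lower (5.13% of all genes were). The smallest p belonged to Rfc4, a subunit of the loader of PCNA, at 8.48, 8.49, 8.49, 8.14 and 8.50 with arsenic and at 7.99, 8.02, 7.79, 8.25 and 7.92 in controls. Only control animal 4 reached into the arsenic values, and the log2 difference was 0.43 (SE 0.10, limma adjusted p = 0.121). Other replication genes had smaller positive differences. Rpa1, of the single-strand binding protein, had 0.21 (limma adjusted p = 0.225), the polymerase gene Pold1 0.22 (0.255) and Gins4, of the active helicase, 0.28 (0.288). The kinase gene Wee1, which restrains Cdk1, had 0.35 (0.299), and the centromere gene Cenpq had -0.43 (0.272). The median difference of the 55 was 0.08. Of the 55, 11 were highest in arsenic animal 3, as were 9.7% of all genes tested. As many were highest in arsenic animal 5, where 17% of all genes tested were.

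None of 12 tested regulators of the E2F, Rb and DREAM families rose or fell, at an adjusted or an unadjusted p of 0.05 (limma; smallest adjusted p 0.404). The 6 with the smallest p were Rbbp4 (log2 difference 0.12), E2f3 (-0.11), E2f6 (0.16), E2f5 (0.14), Rbl1 (-0.30) and Lin37 (0.14). Another probe set of Rbbp4 had -0.30. Rbl1, a pocket protein of the DREAM complex, was -0.17 without arsenic animal 2 and -0.45 without control animal 5. Foxm1 and Mybl2, the factors of the late genes, did not pass the filter, at means of 2.75 and 2.68.

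The inhibitor Cdkn1a, which blocks cyclin-dependent kinases, is no gene of division or replication but was named beside them because it was known to pass. It rose in arsenic lungs, at 11.22, 11.59, 11.68, 11.92 and 11.87, against 10.44, 10.69, 10.58, 10.43 and 11.12 in controls. The groups did not overlap (log2 difference 1.00, SE 0.16, limma adjusted p = 0.0326), but of 10 fits lacking a single array only 2, without arsenic animal 1 or control animal 5, kept the call. Its call also ended without a filter (adjusted p = 0.085) and with the kidney level as a covariate (0.0879), in a range of 0.0133 to 0.132 over the alternatives. In arsenic animal 3 Cdkn1a was at 11.68, in the middle of its group, while Ube2c, Cdk1 and Birc5 had their highest values there.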

How the data were processed

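The deposited table holds 1 log2 value per probe set and array for 45101 probe sets; GCRMA is named in the submitters' processing notes, with no version given in the sources used here. The log2 scale and the lack of centring were read from the deposited values, 0.619 to 16.3. Groups and animal numbers were taken from the titles. Probe sets with 1 symbol in the annotation provided (34958) named genes, and the array's 64 control probe sets were left out. The kept probe set with the highest mean stood for a gene, which gave 11332 genes. The main test was limma's moderated test (R 4.3.3, limma 3.58.1, lmFit followed by eBayes) with no covariate and with Benjamini-Hochberg adjustment over all of them. The fit was first tested on simulated data. Correlations were tested with 100000 permutations.

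The genes, lists and tests were chosen with earlier results of these data known, and the split into division and replication after the values were seen. Values per animal were given for the 12 genes with the smallest p, for the highest gene of each role, and, chosen after the values were seen, for Ube2c and others. Replicates are separate animals by the labels. Same-numbered animals of the groups did not vary together (correlations -0.33 to 0.25), so the numbers were not treated as pairs. Detection calls were not used here. Figures were drawn with matplotlib 3.10.9.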

Additional observations from a re-analysis of the deposited data

Results flagged for a closer look

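Within each group of 5, a value was listed here when its gap to the nearest other animal, as a share of the group's range, exceeded 0.71, Dixon's critical value. Over the 41 measured genes, 82 groups were looked at and 15 values met this, 7 with arsenic and 8 in controls. Chance gives about 1 in 20 groups; over all 18193 measured genes the share was 9.77% of arsenic and 8.81% of control groups. Of the 21 genes past the filter 0 arsenic and 5 control groups met it, against 5.92% and 6.05% of all genes tested. The genes share their arrays, so the counts are not independent.

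Arsenic animal 3 was high in Aurkb (5.05, gap share 0.871), Kif20a (4.08, 0.864), Kif2c (3.74, 0.772), Tk1 (3.78, 0.721) and Tpx2 (3.92, 0.93), none of which passed the filter. Over all measured genes 1.56% had such a high value in this animal; over the genes past the filter it was 0 of 21, against 0.724% of all genes tested. Control animal 2 was low in Birc5 (4.38, gap share 0.753), Ccna2 (2.86, 0.823), Top2a (4.12, 0.819) and Ube2c (5.71, 0.756). Arsenic animal 2 was low in Plk1 (2.69, 0.803) and arsenic animal 5 in Mki67 (2.39, 0.74), both at the lower end of the scale. Control animal 1 was high in Mcm5 (9.54, 0.776), control animal 3 in Tpx2 (3.68, 0.73), control animal 4 in Mki67 (3.03, 0.845) and control animal 5 in E2f1 (5.85, 0.72).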

How the results depend on the processing

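Under each of 25 alternatives 0 genes of cell division and replication, 0 of the further cell-cycle genes and 0 of the E2F, Rb and DREAM regulators passed (with an adjusted p under 0.10 in 1 of the alternatives); the smallest adjusted p of the 21 genes was 0.0992, that of Mcm7 with the kidney level as a covariate. Leaving out 1 array kept all 3 counts at 0 and moved the median log2 difference between -0.04 and 0.03. Over all genes 54 passed, against 19 without a filter, 7 with the t-test, 5 with the kidney level, 5 with the replicate block, 11 without arsenic animal 4 and control animal 2, 108 at an adjusted p of 0.10 and 9 to 41 without 1 array. With the replicate block the smallest adjusted p of the 21 genes was 0.233; the numbers did not pair the animals, and the call of Cdkn1a was lost (adjusted p = 0.064), also with the t-test (0.116) and without arsenic animal 4 and control animal 2 (0.132).

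Signs of differences near 0 turned, none of them called; the cause was not tested. The kidney level, which itself tended to be higher with arsenic, was an alternative chosen after the data were seen. With it the log2 difference was 0.11 for Cdc20, -0.053 for Cdc6, 0.086 for Cdk1, 0.024 for Cenpa, 0.18 for E2f1, 0.012 for Mcm2, 0.20 for Mcm3 and 0.034 for Mcm6. With arrays centred on their median it was 0.045 for Cdc20, 0.037 for E2f1, 0.020 for Mcm3 and 0.032 for Mcm4. E2f1 had 0.048 with quantile normalization, 0.011 with array weights and 0.084 without arsenic animal 4 and control animal 2, where Mcm3 had 0.072 (added after the data were seen). Cdt1 had -0.043 with array weights. At the probe set with the largest variance Cdt1 had -0.083, Mcm6 0.018 and Rbbp4 -0.30. Without probe sets ending in _x_at or _s_at, also added later, Rrm2 had 0.047.

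Without 1 array, turned differences ran from -0.025 to 0.27 for Birc5, -0.00078 to 0.078 for Bub1b, -0.096 to 0.041 for Cdc20, -0.36 to 0.095 for Cdk1, -0.11 to 0.14 for E2f1, -0.13 to 0.35 for Ube2c, -0.043 to 0.21 for Cdc6, -0.037 to 0.073 for Cdt1, -0.12 to 0.027 for Mcm3, -0.15 to 0.065 for Mcm4 and -0.039 to 0.11 for Rrm1. Signal limits what could be tested: 20 of 41 genes did not pass the filter.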
